A study of Mus musculus with 24 samples.

Results

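Smyd3 is a lysine methyltransferase of the SMYD family, and the peaks described here are the Smyd3 ChIP-seq peaks of mouse liver that lay at gene starts without a listed region of H3K4me3, the trimethylated histone mark of active promoters. They were chosen by position alone: a Smyd3 peak that shared no base with the H3K4me3 regions of DEN-treated wild-type liver and whose nearest edge lay within 1000 bp of the annotated start of a gene. This rule gave 2245 of 27324 Smyd3 peaks (8.22%). They are called Smyd3-only start peaks below, a name that refers to these peak lists and to no other mark or factor, and the genes that start there, 2355 of 37583 genes (6.27%), are called Smyd3-only start genes.

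Livers came from mice of 8.5 months, labelled as C57BL6/CBA. The RNA data used here hold 4 groups with 3 libraries each, labelled as separate mice: DEN_KO, Smyd3-deficient mice given a single intraperitoneal injection of 25 mg/kg diethylnitrosamine (DEN), DEN_WT, wild-type mice given the same injection, KO, untreated Smyd3-deficient mice, and WT, untreated wild-type mice. The deficient mice carry a gene trap cassette in an intron of Smyd3, an allele that is not specific to liver. DEN damages liver DNA and is used to induce hepatocellular carcinoma in mice. The Smyd3 peaks and the wild-type H3K4me3 regions came from DEN_WT livers and a further H3K4me3 list came from DEN_KO livers, each from 2 ChIP replicates, and how the replicates were combined into the lists is not given in the sources used here. No Smyd3 peak list of untreated or of Smyd3-deficient liver was used here, so the lists do not show which peaks depend on Smyd3 or on DEN.

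H3K4me3 is deposited mainly by the SET1 and MLL complexes and sits around the starts of transcribed genes. In many cells CpG-rich promoters of developmental genes are kept silent by Polycomb complexes, which deposit H3K27me3, and germline genes are kept silent by DNA methylation. Methyltransferase activity of SMYD3 has been described both on histones and on a cytoplasmic kinase.

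To show the kind of DNA found at these starts, promoter windows of 9 Smyd3-only start genes are printed, 250 bases before to 50 bases after the RefSeq start in build GRCm38.p6. The genes were chosen after their values had been seen: 4 with hardly any RNA in these livers, a homeobox gene of the midbrain (En1), a homeobox gene of limb and genital patterning (Hoxd13), a germline gene of transposon silencing (Mael) and a subunit of the NMDA glutamate receptor (Grin1), and 5 whose RNA differed between the groups, a neuronal kinesin (Kif5c), an N-type calcium channel subunit (Cacna1b), a collagen VI chain (Col6a6), a cytosolic acyl-CoA thioesterase (Acot1) and a peptidase that degrades thyrotropin-releasing hormone (Trhde). Capitals mark CG dinucleotides, the rest is in lower case. The peak lists are in build mm9, of which no genome was used here, so the windows are those of the genes and not the peaks themselves.
En1, GRCm38.p6 chr1:120602237-120602536, strand +: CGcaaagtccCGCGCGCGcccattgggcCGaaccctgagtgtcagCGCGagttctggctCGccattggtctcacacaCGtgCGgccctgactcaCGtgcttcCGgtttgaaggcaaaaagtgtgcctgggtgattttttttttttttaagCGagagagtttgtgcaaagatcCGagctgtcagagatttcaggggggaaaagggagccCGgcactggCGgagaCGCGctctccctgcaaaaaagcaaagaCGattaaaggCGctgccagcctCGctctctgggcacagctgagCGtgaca
Hoxd13, GRCm38.p6 chr2:74667975-74668274, strand +: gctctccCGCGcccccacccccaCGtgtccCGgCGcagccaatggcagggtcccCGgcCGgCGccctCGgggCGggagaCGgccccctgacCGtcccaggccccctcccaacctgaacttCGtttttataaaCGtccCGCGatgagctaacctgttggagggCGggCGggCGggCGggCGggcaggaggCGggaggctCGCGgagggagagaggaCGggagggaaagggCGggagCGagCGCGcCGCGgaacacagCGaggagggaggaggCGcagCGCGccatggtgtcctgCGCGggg
Mael, GRCm38.p6 chr1:166238695-166238994, strand -: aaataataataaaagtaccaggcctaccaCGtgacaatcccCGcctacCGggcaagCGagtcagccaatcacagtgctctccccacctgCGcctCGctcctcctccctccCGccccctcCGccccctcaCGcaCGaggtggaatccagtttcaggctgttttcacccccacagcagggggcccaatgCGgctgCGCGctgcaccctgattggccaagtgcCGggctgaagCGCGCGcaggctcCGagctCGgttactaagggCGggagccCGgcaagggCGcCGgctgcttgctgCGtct
Grin1, GRCm38.p6 chr2:25319138-25319437, strand -: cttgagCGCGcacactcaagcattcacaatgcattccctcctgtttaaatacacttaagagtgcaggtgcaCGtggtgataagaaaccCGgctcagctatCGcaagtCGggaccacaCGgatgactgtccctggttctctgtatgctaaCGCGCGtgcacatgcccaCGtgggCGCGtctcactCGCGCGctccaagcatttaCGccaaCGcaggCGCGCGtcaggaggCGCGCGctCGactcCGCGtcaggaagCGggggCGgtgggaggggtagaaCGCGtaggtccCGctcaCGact
Kif5c, GRCm38.p6 chr2:49619036-49619335, strand +: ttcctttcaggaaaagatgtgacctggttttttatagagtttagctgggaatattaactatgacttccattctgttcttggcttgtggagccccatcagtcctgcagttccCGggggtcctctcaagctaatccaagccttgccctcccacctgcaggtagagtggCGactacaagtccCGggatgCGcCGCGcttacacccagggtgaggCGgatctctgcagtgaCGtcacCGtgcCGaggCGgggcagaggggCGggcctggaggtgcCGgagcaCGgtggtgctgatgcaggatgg
Cacna1b, GRCm38.p6 chr2:24763103-24763402, strand -: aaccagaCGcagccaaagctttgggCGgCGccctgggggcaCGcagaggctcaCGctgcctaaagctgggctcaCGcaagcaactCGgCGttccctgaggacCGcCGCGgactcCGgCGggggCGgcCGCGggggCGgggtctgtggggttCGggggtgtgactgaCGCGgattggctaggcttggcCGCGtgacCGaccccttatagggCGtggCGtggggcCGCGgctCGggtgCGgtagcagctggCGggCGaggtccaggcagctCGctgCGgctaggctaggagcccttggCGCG
Col6a6, GRCm38.p6 chr9:105828036-105828335, strand -: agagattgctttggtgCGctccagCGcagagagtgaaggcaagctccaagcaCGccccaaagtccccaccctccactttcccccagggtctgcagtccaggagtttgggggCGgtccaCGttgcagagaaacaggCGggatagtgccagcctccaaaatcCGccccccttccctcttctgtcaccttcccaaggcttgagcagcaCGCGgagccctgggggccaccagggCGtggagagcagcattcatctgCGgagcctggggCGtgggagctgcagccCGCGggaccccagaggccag
Acot1, GRCm38.p6 chr12:84009252-84009551, strand +: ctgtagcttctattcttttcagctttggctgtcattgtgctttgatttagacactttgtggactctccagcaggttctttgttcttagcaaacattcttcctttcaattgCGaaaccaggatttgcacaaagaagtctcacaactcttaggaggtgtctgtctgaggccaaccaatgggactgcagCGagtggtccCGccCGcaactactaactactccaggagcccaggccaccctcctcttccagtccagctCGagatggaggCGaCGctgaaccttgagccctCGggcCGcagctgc
Trhde, GRCm38.p6 chr10:114802253-114802552, strand -: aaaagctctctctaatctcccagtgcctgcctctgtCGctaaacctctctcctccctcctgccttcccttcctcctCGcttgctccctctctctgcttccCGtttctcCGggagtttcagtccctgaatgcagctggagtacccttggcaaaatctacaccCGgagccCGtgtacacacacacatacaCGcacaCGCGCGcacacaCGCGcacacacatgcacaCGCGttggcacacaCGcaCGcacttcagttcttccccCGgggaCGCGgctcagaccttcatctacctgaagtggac

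The silent genes had CpG-dense windows. The windows of En1, Hoxd13, Mael and Grin1 held 23, 37, 24 and 33 CG dinucleotides, against a median of 7 over all 32851 windows of the RefSeq table, and the observed over expected CpG ratio of the Grin1 window, 1.20, exceeded that of 99.5% of all windows. Cacna1b had 35 and Trhde 19 CG dinucleotides. Kif5c with 14, Col6a6 with 14 and Acot1 with 9 were nearer to the median, and the Acot1 ratio of 0.450 exceeded that of 54.8% of all windows. The motif CCCTCC, described for SMYD3 binding in cell culture, was searched on both strands and was present in 7 of the 9 windows, all but En1 and Cacna1b, and in 39.2% of all windows. The GC box GGGCGG was present in 7 of the 9 windows, all but En1 and Trhde, and in 35.7% of all windows. The TATA motif TATAAA was present in the Hoxd13 and Kif5c windows and in 13.6% of all windows. Of the other motifs searched on both strands, the CCAAT box was present in the En1, Hoxd13, Mael, Cacna1b and Acot1 windows and in 37.4% of all windows, and the E-box CACGTG in the En1, Hoxd13, Mael and Grin1 windows and in 7.15% of all windows. The forkhead motif TGTTTAC was in none of the 9 windows and in 3.65% of all windows. The HNF1 motif GTTAAT was in the Kif5c window and in 7.10% of all windows. The nuclear receptor motif CAAAGTC was in the En1 and Col6a6 windows and in 4.44% of all windows. The GC content of the 9 windows ranged from 52.0% (Acot1) to 74.3% (Hoxd13), against a median of 52.7% over all windows. Because the 9 were picked by hand and are not the peaks, their motif counts describe these windows only and cannot show an excess at Smyd3 peaks. A promoter window could be matched to 1352 of the 2355 Smyd3-only start genes (57.4%), fewer than the 80% needed, so a comparison of window composition or motifs between classes of gene start is void and is not given.

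Smyd3-only start peaks also covered or flanked the starts of 67 of 1626 miRNA genes (4.12%, against 6.27% of all genes). Of these 67 genes, 39 were at 0 in all 12 RNA libraries and 61 were below 10 in each of them, in libraries made from mRNA that do not measure mature miRNAs. The mature sequences of 6 are shown with the seed, bases 2 to 8, in capitals, and were chosen after their values had been seen, because they include 2 neighbouring pairs: miR-34b and miR-34c on chromosome 9, whose seeds are the same, and miR-141 and miR-200c on chromosome 6.
mmu-miR-34b-3p: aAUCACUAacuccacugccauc
mmu-miR-34c-3p: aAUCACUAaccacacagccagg
mmu-miR-141-3p: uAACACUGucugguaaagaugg
mmu-miR-200c-3p: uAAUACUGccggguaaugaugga
mmu-miR-9-5p: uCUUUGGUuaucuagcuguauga
mmu-miR-196b-5p: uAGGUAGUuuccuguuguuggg
The peaks covered the annotated starts of Mir34b, Mir9-3 and Mir196b and lay 178 bp from that of Mir34c, 73 bp from that of Mir200c and 478 bp from that of Mir141. The highest value of any of these 6 genes in any library was 4, for Mir9-3.

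The Smyd3-only start peaks were narrower and less tightly placed than Smyd3 peaks at starts with H3K4me3. Their median width was 729 bp (quartiles 583 and 986 bp), against 995 bp (791 and 1265 bp) for the 9546 Smyd3 peaks at starts with H3K4me3, and 646 bp for the 5733 peaks in gene bodies outside H3K4me3. A gene start lay inside 1419 of the 2245 peaks (63.2%), against 88.8% of the peaks at starts with H3K4me3. In a further 162 peaks the edge lay within 100 bp of the start, in 345 over 100 and up to 500 bp away and in 319 over 500 and up to 1000 bp. The peak centre lay on the transcribed side of the nearest start in 73.1% of Smyd3-only start peaks, against 80.1% of those with H3K4me3, and the medians were 179 bp and 143 bp into the gene. The share with the centre within 250 bp of the start was 45.8%, against 65.5%. These are single lists, so the differences have no replicate error and no test.

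**Figure D1:**
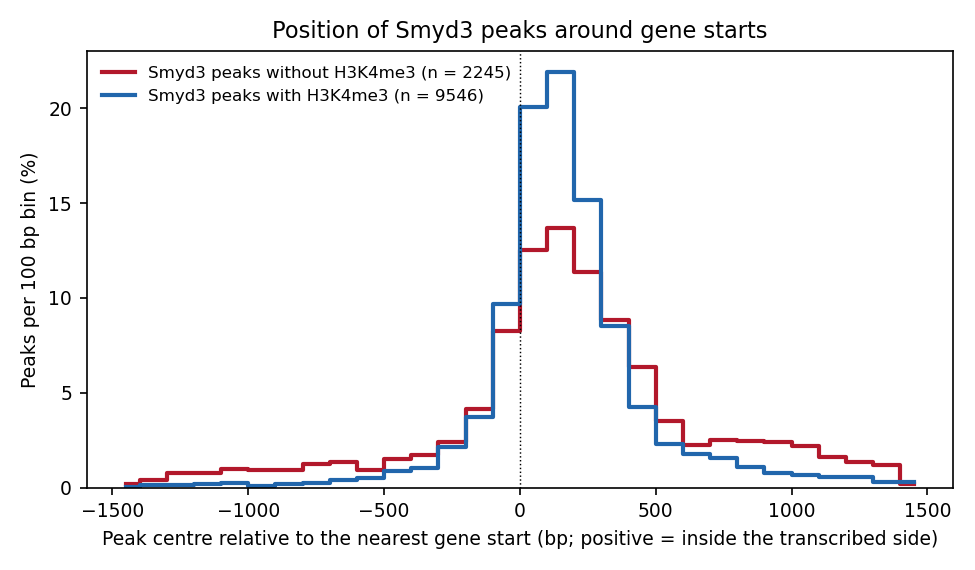
Distance from the centre of each Smyd3 peak to the nearest gene start (x axis, bp, positive on the transcribed side) for the 2245 peaks without H3K4me3 (red) and the 9546 with H3K4me3 (blue), as the share of each set in bins of 100 bp (y axis). Both sets have their highest bin just inside the gene, and the set without H3K4me3 has a larger share of its peaks beyond 500 bp on either side.

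The 1000 bp limit cut through a continuous range. The 2 peaks just inside it lay 997 bp from the start of Has2, a hyaluronan synthase, and 993 bp from that of Gad2, a GABA-synthesising enzyme. The 2 just outside lay 1001 bp from Lrrc4 and 1005 bp from Osm, and both of these genes had another Smyd3-only start peak nearer by, at 137 and 54 bp. The 3 widest peaks, all in mm9 coordinates, were at the mucin gene Muc19 (chr15:91736787-91740962, 4176 bp), the Toll-like receptor 4 interactor Tril (chr6:53767653-53771140, 3488 bp) and the Fc gamma receptor Fcgr3 (chr1:172993747-172997041, 3295 bp). A single peak lay within 1000 bp of the starts of at least 2 genes in 265 cases, and 175 genes had at least 2 such peaks. The most was 3, at Basp1, a growth cone protein gene, together with its divergent neighbour Gm5468, and at E130003G02Rik.

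The chromosomes differed in their share. Smyd3-only start peaks made up 10.3% of all Smyd3 peaks on chromosomes 2 and 11, 10.2% on chromosomes 4, 9 and 19, and 3.05% on chromosome X, and none of the 17 Smyd3 peaks on chromosome Y was in this set.

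Absence of H3K4me3 at the peak did not mean that the mark was far away in every case. The median distance to the nearest wild-type H3K4me3 region was 39.5 kb (quartiles 12.9 and 110 kb), but 66 of the 2245 peaks had a region within 1000 bp. Of the 2355 genes, 69 had such a region within 1000 bp of the start and 261 had a region somewhere in the annotated gene, which for a gene with several promoters can mark another start. In the H3K4me3 list of DEN_KO livers, 301 Smyd3-only start peaks (13.4%) overlapped a region, against 3.45% of Smyd3 peaks in gene bodies and 4.40% of intergenic Smyd3 peaks outside wild-type H3K4me3. In the other direction, 350 of the 9546 Smyd3 peaks at starts with wild-type H3K4me3 (3.67%) overlapped none in the DEN_KO list. The DEN_KO list was longer, 17491 against 15579 regions, and its regions were wider, with a median of 1576 against 1480 bp, so a peak can be in it without a change of the mark at that peak.

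The peaks that shared most bases with a DEN_KO H3K4me3 region lay at Adrb1, the beta-1 adrenergic receptor gene, at 9330154J02Rik, at Cdkn1c, an imprinted cyclin-dependent kinase inhibitor gene, and at E2f8, a cell cycle repressor gene. At Adrb1 the whole peak of 2485 bp (mm9 chr19:56796009-56798493) lay within a DEN_KO region of 5078 bp, and the nearest wild-type region was 96.6 kb away. Adrb1 RNA was 23, 15 and 27 in the 3 DEN_KO livers, against 36, 4 and 23 in the 3 DEN_WT livers, groups that overlapped. At E2f8 the nearest wild-type region was 566 bp from the peak.

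Most Smyd3-only start genes had few reads. The deposited RNA values are normalized counts per gene and not per length, so the shares below describe how many reads genes of each class had, and gene length, which was not corrected for, can contribute to them. The mean value in DEN_WT livers was below 10 in 1617 of the 2355 genes (68.7%), against 13.6% of the 11061 genes that start at a Smyd3 peak with H3K4me3, 20.6% of the 2245 genes with H3K4me3 only and 83.8% of the 21922 genes with neither. Values of 1000 and over were found in 1.91% of Smyd3-only start genes, against 20.2%, 23.1% and 1.15% in those 3 classes. Of 1759 protein-coding Smyd3-only start genes, 890 stayed below 10 in every one of the 12 libraries. The GC content of the whole gene, which the deposited table gives for every gene, had a median of 50.5% in Smyd3-only start genes, against 46.1% in genes with Smyd3 and H3K4me3, 45.4% with H3K4me3 only and 45.4% with neither.

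**Figure D2:**
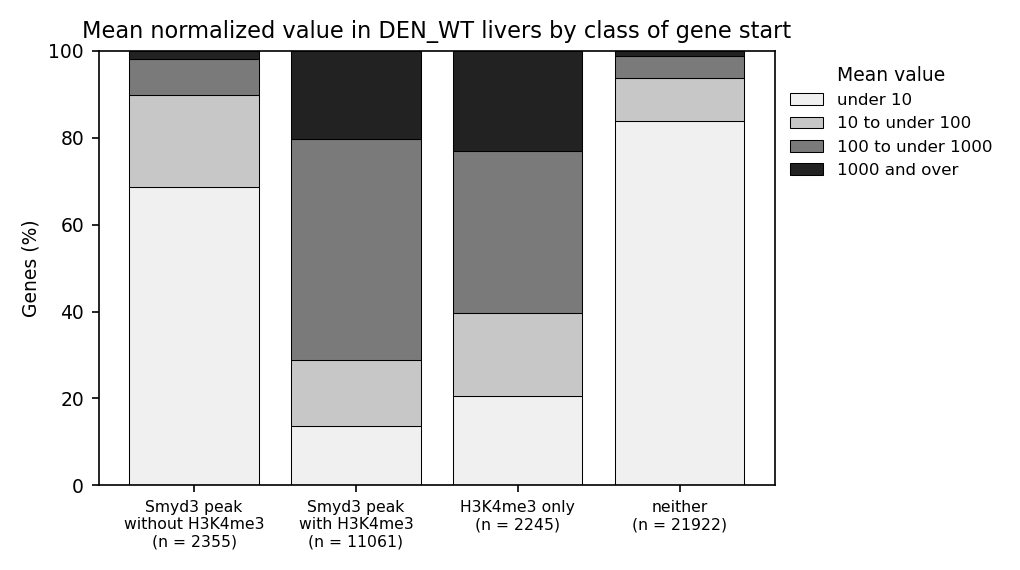
Share of genes (y axis, %) by mean normalized RNA value in the 3 DEN_WT livers, for the 4 classes of gene start (x axis, with the number of genes). Values under 10 make up 68.7% of genes at Smyd3 peaks without H3K4me3, against 13.6% at Smyd3 peaks with H3K4me3.

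A minority were transcribed without a listed H3K4me3 region. At least 100 in each DEN_WT liver was reached by 187 Smyd3-only start genes, and 101 of them (54.0%) had no wild-type H3K4me3 region within the gene or within 1000 bp of its start. These 101 comprised 54 protein-coding genes and 41 pseudogenes, whose reads can come from a near-identical parent gene, with the rest of other types. Of the 101, 28 had a Smyd3-only start peak that overlapped the DEN_KO H3K4me3 list. Of the 8 genes with the largest mean read value in DEN_WT, which is not per length, 5 had a wild-type region in the annotated gene: Col18a1, a basement membrane collagen, Gnas, the stimulatory G protein alpha subunit, Ssr3, a subunit of the translocon-associated complex, Atp5d, an ATP synthase subunit, and Pink1, a mitochondrial kinase. The other 3, Gm13456, Gm10116 and Gm10073, had none and are predicted genes for which reads shared with near-identical copies make the values uncertain. Wild-type H3K4me3 lay within 1000 bp of the peak at Ssr3 (638 bp), Atp5d (718 bp) and Pink1 (505 bp).

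Developmental regulators were frequent among Smyd3-only start genes. Of 158 genes of developmental transcription factor families outside the Hox clusters, 82 (51.9%) were Smyd3-only start genes, against 6.27% of all genes. They included Neurog2 and Olig2, which direct neural fates, Pax2 and Pax3 of kidney and neural crest, Nkx2-1 of lung and thyroid, Nkx2-5 of heart, and Sox2 of stem cells, and 73 of the 82 fell below the filter for testing. Of 40 Hox cluster genes, which pattern the body axis, 18 (45.0%) were Smyd3-only start genes, 16 of them below 10 in all libraries. Hoxd13 had values of 0, 1 and 0 in DEN_KO, 0, 0 and 0 in DEN_WT, 0, 0 and 3 in KO and 1, 1 and 1 in WT livers. En1 had at most 3 in any library. Of 41 Wnt and Fgf ligand genes, 20 (48.8%) belonged to the set. The gene groups by symbol were written down after the names of the genes had been seen, so the shares describe them and are not tested.

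Neuronal genes formed a further part. Of 91 genes of neurotransmitter receptor subunits 36 (39.6%) were Smyd3-only start genes, among them the glutamate receptor genes Grin1, Grin2a and Grin2b and the nicotinic receptor genes Chrna3, Chrna7 and Chrnb2. Grin1 had 2, 2 and 2 in DEN_KO livers, against 5, 1 and 3 in DEN_WT livers. Of 94 potassium channel genes 34 (36.2%) were in the set, among them Kcnq3 and Kcna2. Of a list of 29 neuronal genes 11 (37.9%) were in the set and none of the other 18 had a Smyd3 peak or an H3K4me3 region at the start. The synaptic vesicle calcium sensor gene Syt1, on that list, had 474, 136 and 227 in DEN_KO livers, against 311, 576 and 351 in DEN_WT livers, and did not pass the test (adjusted p = 0.14, limma).

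Germline genes were the group with the highest share. Of 48 genes of meiosis and the germline, 26 (54.2%) were Smyd3-only start genes, including the synaptonemal complex genes Sycp1, Sycp2 and Sycp3, the RNA helicase gene Ddx4, the meiotic recombinase gene Dmc1 and the piRNA pathway genes Piwil1, Mael and Tdrd1. Of these 26, 20 were below 10 in all libraries. Mael was at 0 in all DEN_KO and DEN_WT livers, at 0, 0 and 8 in KO and at 1, 2 and 0 in WT livers. Keratin-associated protein genes, which form the hair shaft, gave 19 of 55 (34.5%), all below 10 in every library.

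Olfactory and vomeronasal receptor genes were rarely in the set, for reasons that were not tested. Of 1251 olfactory receptor genes 10 (0.799%) and of 503 vomeronasal receptor genes 2 (0.398%) were Smyd3-only start genes, while 1240 of the olfactory and 499 of the vomeronasal receptor genes had neither a Smyd3 peak nor an H3K4me3 region at the start. Lists of liver, cell cycle and ribosomal protein genes are set beside the share of all genes, 6.27%. The rule leaves out peaks that overlap wild-type H3K4me3, so genes with the mark at the start are mostly left out by the rule itself. None of a list of 91 drug metabolism genes, 102 genes of secreted liver proteins or 22 genes of major urinary proteins and lipocalins was in the set. Of these lists, 53, 70 and 6 genes had H3K4me3 without a Smyd3 peak at the start. By symbol, 5 of 94 cytochrome P450 genes (5.32%) were in the set, near the share of all genes, among them Cyp1a1 and Cyp1b1. Of 105 genes of liver metabolism 5 (4.76%) belonged to the set, also near the share of all genes. Of 61 cell cycle genes 2 (3.28%) did, and of 78 ribosomal protein genes 1 (1.28%), the testis-expressed Rpl10l. A Smyd3 peak with H3K4me3 lay at the start of 51 of the cell cycle and 64 of the ribosomal protein genes.

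**Figure D3:**
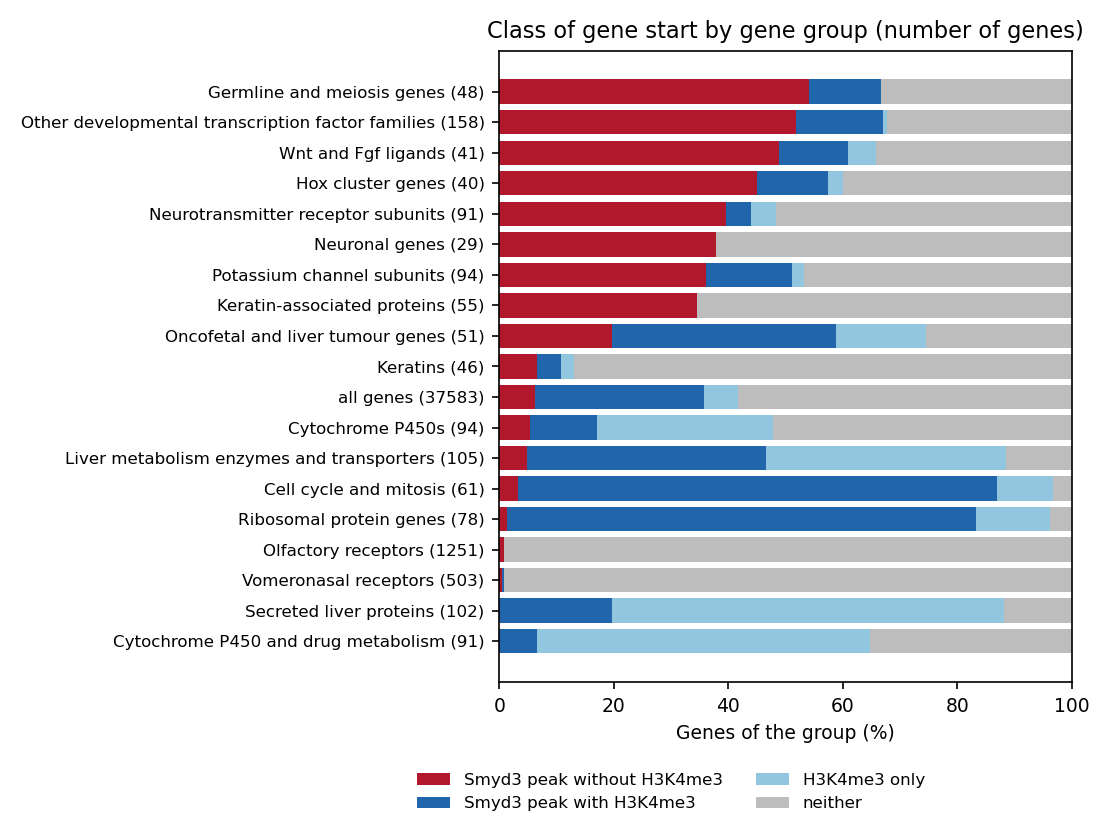
Class of gene start, as a share of the genes of each group (x axis, %; number of genes beside each name), with genes at Smyd3 peaks without H3K4me3 in red. The share in red is 54.2% for germline genes and 51.9% for developmental transcription factors outside the Hox clusters, against 6.27% of all genes. It is 5.32% for cytochrome P450 genes by symbol and 0 for the lists of drug metabolism and secreted liver protein genes.

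The RNA of 827 of the 2355 Smyd3-only start genes (35.1%) passed the filter, a value of 10 or more in 3 or more of the 12 libraries, against 88.2% of genes with Smyd3 and H3K4me3. The 1528 others are described above by level only. All tests are limma fits of log2(value + 1) over 16471 genes with p-values adjusted by the Benjamini-Hochberg method, so fold changes understate the change of low genes. The targeted gene, Smyd3, had 12, 3 and 8 in DEN_KO livers, against 57, 71 and 74 in DEN_WT livers, and 29, 17 and 22 in KO livers, against 79, 89 and 59 in WT livers. Smyd3 itself passed the test in DEN_KO against DEN_WT (log2 difference -3.13 ± 0.41 SE, adjusted p = 0.00018, limma) and missed it in KO against WT (-1.71 ± 0.41, adjusted p = 0.065), although neither pair of groups overlapped. The values of a library summed to between 22320634 and 28973396, and correlations between libraries of a group ranged from 0.956 to 0.978. In bulk liver, fewer cells of a type and less RNA per cell cannot be told apart.

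In DEN_KO livers, 231 of the 827 tested Smyd3-only start genes passed the test against DEN_WT (27.9%), against 33.9% of all tested genes. Of these, 132 were higher in DEN_KO (16.0%, against 16.4% of all tested genes) and 99 were lower (12.0%, against 17.4%). The shares called are not above those of all genes. The median log2 difference was 0.03 in Smyd3-only start genes, against -0.06 over all tested genes and -0.11 in genes at Smyd3 peaks with H3K4me3, of which 1378 were higher and 1957 lower.

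Genes are named below by the size of their change among those past the test whose groups did not overlap. The 8 that fell most in DEN_KO relative to DEN_WT had low values in untreated livers, at most 13 in any WT or KO liver for 7 of them and at most 26 for Col6a6. Kif5c, a neuronal kinesin heavy chain (peak at mm9 chr2:49474663-49475399, over the start), had 15, 156 and 22 in DEN_KO livers, against 477, 772 and 584 in DEN_WT livers. The groups did not overlap, and DEN_KO replicate 2 was the highest of its group (log2 difference -3.96 ± 0.67 SE, adjusted p = 0.00086, limma). Col6a6, a collagen VI chain (mm9 chr9:105730271-105730662), had 18, 75 and 14, against 299, 858 and 462 (-4.14 ± 0.55, adjusted p = 0.00020), again highest in DEN_KO replicate 2. Cacna1b, a neuronal calcium channel subunit with 2 such peaks, had 14, 19 and 10 in DEN_KO livers, against 335, 232 and 91 in DEN_WT livers (-3.70 ± 0.50, adjusted p = 0.00022). None of these 3 genes had a listed H3K4me3 region in the gene in DEN_WT livers, and the nearest was 166, 184 and 154 kb from the peak.

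Glp2r, the receptor of an intestinal growth peptide (mm9 chr11:67584308-67584568), had 16, 10 and 5 in DEN_KO livers, against 58, 529 and 323 in DEN_WT livers (log2 difference -4.38 ± 0.75 SE, adjusted p = 0.00088, limma). 9030425E11Rik had 13, 7 and 4, against 159, 446 and 236 (-4.96 ± 0.60, adjusted p = 0.00012), and is a gene with a wild-type H3K4me3 region elsewhere in it. Igf2bp3, an oncofetal RNA-binding protein that is silenced in adult liver, had 4, 3 and 0, against 83, 38 and 17 (-3.84 ± 0.77, adjusted p = 0.0023). Bmp8b, a bone morphogenetic protein, had 5, 48 and 7, against 301, 105 and 151 (-3.67 ± 0.72, adjusted p = 0.0020). In all 4 genes every DEN_KO liver lay below every DEN_WT liver, as the choice of named genes required. 6030419C18Rik, whose peak lay 540 bp from a wild-type H3K4me3 region, had 0, 23 and 1 in DEN_KO livers, against 57, 41 and 74 in DEN_WT livers (-3.96 ± 0.96, adjusted p = 0.0067).

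The 8 genes that rose most in DEN_KO relative to DEN_WT included 3 of lipid metabolism. Acot1, which hydrolyses acyl-CoA in the cytosol (peak at mm9 chr12:85350306-85350978, over the start), had 815, 2766 and 974 in DEN_KO livers, against 124, 71 and 111 in DEN_WT livers (log2 difference 3.70 ± 0.45 SE, adjusted p = 0.00012, limma). Its reads can be shared with near-identical paralogs of its cluster. Fitm1, a lipid droplet protein of muscle, had 1507, 1196 and 1066, against 224, 11 and 47 (4.62 ± 0.86, adjusted p = 0.0015). Plin4, a lipid droplet coat protein, had 1922, 781 and 358, against 122, 40 and 35 (3.85 ± 0.60, adjusted p = 0.00049). The groups did not overlap in any of the 3, as the choice of named genes required. The peaks at Acot1 and Fitm1 overlapped DEN_KO H3K4me3 regions of 918 and 936 bp, while the peak at Plin4 did not.

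The other 5 of the 8 genes that rose most were 2 pseudogenes, Gm12563 and Gm10059, and 3 miRNA gene entries, mmu-mir-2134-2, Mir5105 and mmu-mir-689-2, all of which can take reads of other copies. mmu-mir-689-2 had 2766, 14100 and 12443 in DEN_KO livers, against 1239, 855 and 302 in DEN_WT livers. Pseudogenes as a whole leaned the same way in this comparison. Of 109 tested pseudogenes among Smyd3-only start genes 38 were higher (34.9%) and 3 lower (2.75%) in DEN_KO, and of all 1692 tested pseudogenes 539 were higher (31.9%) and 74 lower (4.37%). Among the 679 protein-coding Smyd3-only start genes 81 were higher (11.9%) and 95 lower (14.0%), with a median log2 difference of -0.11. Of all 13988 tested protein-coding genes 14.6% were higher and 19.5% lower, with a median of -0.11. The calls of the 16 genes that changed most held in each of the 12 fits that left out 1 library. These genes were chosen for large changes in the same libraries. Leaving out a KO or WT library cannot change their log2 difference, so only the fits without a DEN_KO or DEN_WT library bear on it.

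The direction of the calls was next described by H3K4me3 status. Of 206 tested Smyd3-only start genes whose peak overlapped the DEN_KO H3K4me3 list, 40 were higher (19.4%) and 19 lower (9.22%) in DEN_KO, with a median log2 difference of 0.18. Over all tested genes 16.4% were higher and 17.4% lower, with a median of -0.06. Of the 621 others, 92 were higher (14.8%) and 80 lower (12.9%), with a median of 0.003. A wild-type H3K4me3 region anywhere in the annotated gene, which for some genes can lie at or near the start itself, was found in 173 tested genes. Of these 173, 19 were higher and 41 lower (23.7%), with a median of -0.22. Among the 654 without one, 113 were higher (17.3%) and 58 lower (8.87%), with a median of 0.12. These splits are descriptions without a test.

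In wild-type mice, DEN-treated livers were compared with untreated ones. This comparison shares its DEN_WT libraries with the one above, so a gene that is high or low in those libraries can appear in both. In DEN_WT against WT, 233 of the 827 Smyd3-only start genes passed the test (28.2%, against 29.6% of all tested genes), 161 higher (19.5%, against 16.1%) and 72 lower (8.71%, against 13.5%). Their median log2 difference was 0.21, against -0.02 over all tested genes. The split depends on the scaling between libraries: with quantile normalization 118 were higher and 111 lower, with medians of -0.10 for Smyd3-only start genes and -0.11 for all genes, and with scaling to library totals 191 were higher and 44 lower, with medians of 0.41 and 0.19. Scaling to library totals moved the median of all genes by 0.21 and quantile normalization by -0.09.

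The 8 genes with the largest rises in DEN_WT over WT were Kif5c, Adcy1, Slpi, Cacna1b, Col6a6, 9030425E11Rik, Prtn3 and Klc3. Adcy1, a neuronal adenylate cyclase (peak at mm9 chr11:6963624-6964308, 132 bp inside a gene that has a wild-type H3K4me3 region elsewhere in it), had 901, 1516 and 983 in DEN_WT livers, against 10, 13 and 11 in WT livers (log2 difference 6.49 ± 0.38 SE, adjusted p = 3.2e-07, limma). In untreated KO livers it had 21, 17 and 29 and in DEN_KO livers 105, 235 and 74, so DEN_KO livers lay between. Kif5c had 3, 6 and 7 in WT livers, so that its rise in DEN_WT was 6.63 ± 0.67 (adjusted p = 1.7e-05), and Cacna1b had 3, 2 and 1 in WT livers, a rise of 6.07 ± 0.50 (adjusted p = 3.9e-06). Col6a6 had 8, 7 and 14 in WT livers, a rise of 5.58 ± 0.55 (adjusted p = 1.4e-05).

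Slpi, a secreted inhibitor of leukocyte proteases, had 697, 153 and 465 in DEN_WT livers, against 2, 5 and 5 in WT livers (log2 difference 6.27 ± 1.01 SE, adjusted p = 0.00053, limma). In DEN_KO livers Slpi had 97, 1290 and 43, and it did not pass the test against DEN_WT (-1.06 ± 1.01, adjusted p = 0.45). DEN_KO replicate 2 alone reached the DEN_WT level, as it did for the fetal growth factor gene Igf2, with 33, 1974 and 37 in DEN_KO livers, against 255, 64 and 89 in DEN_WT livers. Prtn3, a protease of neutrophil granules, had 339, 20 and 200 in DEN_WT livers, against 1, 1 and 6 in WT livers, and Klc3, a kinesin light chain, had 74, 138 and 98, against 2, 6 and 0. Prtn3 and Klc3 were lower in DEN_KO than in DEN_WT (-3.13 ± 1.02, adjusted p = 0.030, and -2.45 ± 0.85, adjusted p = 0.040), calls that were each lost on leaving out any 1 of 5 libraries (all but DEN_WT replicate 2 of the 6 compared for Prtn3, all but DEN_KO replicate 2 for Klc3), with adjusted p up to 0.12 for Prtn3 without DEN_WT replicate 1 and up to 0.14 for Klc3 without DEN_KO replicate 3.

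Cd14, the lipopolysaccharide co-receptor of myeloid cells, had 1839, 1433 and 2494 in DEN_WT livers, against 56, 47 and 73 in WT livers (log2 difference 5.00 ± 0.35 SE, adjusted p = 1.5e-06, limma). It had 181, 302 and 98 in DEN_KO livers and was lower there than in DEN_WT (-3.41 ± 0.35, adjusted p = 5.1e-05). Its peak lay 231 bp from a wild-type H3K4me3 region, and the annotated gene holds such a region. Cd14 is thus a Smyd3-only start gene by the edge of the list and not a gene without the mark. None of 4 tested macrophage markers passed the test in DEN_WT against WT, and their sum was 4656 to 6460 in DEN_KO livers, 1421 to 4490 in DEN_WT livers and 2859 to 2979 in WT livers. Stellate cell markers summed to 933 to 1184 in DEN_KO, 2202 to 5794 in DEN_WT and 915 to 953 in WT livers, with 4 of 6 higher in DEN_WT than in WT. Cholangiocyte markers summed to 1074 to 1801, 9721 to 16637 and 902 to 1107. Only 1 of these 5 markers was higher in DEN_WT than in WT and none lower, so the sum does not stand for the list. Epcam, on that list, had 36, 21 and 34 in DEN_WT livers, against 11, 19 and 20 in WT livers (adjusted p = 0.17, limma). Neuron markers summed to 251 to 502, 330 to 592 and 395 to 466, with none of 2 tested past the test. Endothelial markers summed to 3482 to 3755, 3821 to 4182 and 2325 to 2661, with 3 of 4 higher in DEN_WT than in WT. No marker of these 5 lists was at 0 in all libraries. The part of stellate, cholangiocyte and endothelial cells in the rises in DEN_WT was not tested.

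Genes of the other lists are given for DEN_WT against WT, where 16.1% of all tested genes were higher and 13.5% lower. Of 9 stellate and matrix genes in the set, all tested, 3 were higher in DEN_WT than in WT and none lower: Lox, a collagen crosslinking enzyme, Tagln, an actin-binding protein of contractile cells, both named after their values were seen, and Col15a1, a basement membrane collagen whose call was lost without DEN_WT replicate 1 or 3 or WT replicate 2 or 3. Of 2 cell cycle genes both were higher: the mitotic cyclin gene Ccnb2 had 115, 251 and 77 in DEN_WT livers, against 7, 8 and 2 in WT livers (log2 difference 4.46 ± 0.58 SE, adjusted p = 0.00012, limma), and Ccnd2 had 177, 256 and 233, against 162, 155 and 122 (0.59 ± 0.20, adjusted p = 0.040). Ccnd2 is close to the threshold and was not past it in 6 of the 12 fits that left out 1 library (DEN_KO replicate 2, DEN_WT replicates 2 and 3, KO replicate 1, WT replicates 2 and 3), with adjusted p up to 0.14 without DEN_WT replicate 2. The Ccnd2 peak lay 542 bp from a wild-type H3K4me3 region, and the annotated gene holds such a region. Ccnb2 had 37, 62 and 20 in DEN_KO livers, lower than in DEN_WT (-1.83 ± 0.58, adjusted p = 0.026), a call lost without DEN_KO replicate 1 or 3 or DEN_WT replicate 2, with adjusted p of 0.060, 0.12 and 0.13. Of 7 tested oncofetal genes 1, Igf2bp3, was higher in DEN_WT than in WT and lower in DEN_KO than in DEN_WT. Tgfb1, the gene of transforming growth factor beta 1, had 266, 230 and 301 in DEN_WT livers, against 133, 119 and 73 in WT livers (1.32 ± 0.23, adjusted p = 0.00085). Its peak lay 509 bp from a wild-type H3K4me3 region. Irf8, a transcription factor of myeloid cells, had 344, 211 and 338 in DEN_WT livers, against 116, 151 and 150 in WT livers (1.07 ± 0.22, adjusted p = 0.0031). Cldn4, a tight junction gene of bile duct epithelium, had 36, 11 and 37, against 2, 4 and 4 (2.60 ± 0.61, adjusted p = 0.0061).

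The 8 genes that fell most in DEN_WT relative to WT were Eps8l1, Tmem28, Gm15723, Trhde, Hhip, Gm11408, Slc26a4 and Gulp1. Trhde (peak at mm9 chr10:114237739-114239386, shared with its antisense gene Gm15723) had 5, 12 and 19 in DEN_WT livers, against 55, 147 and 101 in WT livers (log2 difference -3.03 ± 0.52 SE, adjusted p = 0.00079, limma). It had 114, 36 and 107 in DEN_KO livers, above every DEN_WT liver (2.73 ± 0.52, adjusted p = 0.0016), and the peak lay within a DEN_KO H3K4me3 region of 3931 bp. Counting by strand is not stated, so reads where Trhde and Gm15723 overlap cannot be told apart. Hhip, an inhibitor of Hedgehog signalling, had 6, 2 and 4 in DEN_WT livers, against 41, 34 and 30 in WT livers (-2.92 ± 0.41, adjusted p = 0.00021), and 13, 26 and 25 in DEN_KO livers. Eps8l1, an actin regulator, had 5, 0 and 6 in DEN_WT livers, against 53, 91 and 153 in WT livers (-4.72 ± 0.75, adjusted p = 0.00050). The calls of Gm15723, Slc26a4 and Gulp1 were each lost without DEN_WT replicate 2 (adjusted p of 0.068, 0.053 and 0.055), that of Gm15723 also without WT replicate 1 or 2, that of Slc26a4 without WT replicate 2 and that of Gulp1 without WT replicate 1 (adjusted p from 0.051 to 0.065).

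Of the 5 liver metabolism genes in the set, 4 were higher in DEN_KO than in DEN_WT and none lower: Acot1 and Plin4, given above, the lipid droplet gene Plin5 and the organic anion transporter gene Slc22a7, where 16.4% of all tested genes were higher and 17.4% lower. Plin5 had 1073, 2254 and 912 in DEN_KO livers, against 593, 262 and 473 in DEN_WT livers (log2 difference 1.63 ± 0.36 SE, adjusted p = 0.0038, limma). Slc22a7 had 641, 1134 and 1383, against 573, 230 and 665, and 1 DEN_KO liver lay within the range of the DEN_WT livers (1.17 ± 0.36, adjusted p = 0.023). The Slc22a7 call was lost without DEN_KO replicate 2 or 3 or DEN_WT replicate 2, with adjusted p of 0.067, 0.099 and 0.096. In DEN_WT against WT, 3 of the 5 were lower, Acot1, Plin5 and Slc22a7, and none higher, where 13.5% of all tested genes were lower. Of 6 hepatocyte markers, 3 were higher in DEN_KO than in DEN_WT and none lower. In DEN_WT against WT, 1 of these markers was higher and 2 were lower. Their sum was 1687410 to 2548257 in DEN_KO livers, against 2981887 to 4593590 in DEN_WT livers. Liver metabolism genes outside the set were not compared here. The Plin5 call was lost without DEN_WT replicate 2 (adjusted p = 0.054) or WT replicate 3 (adjusted p = 0.053). The fifth gene, Abcg8, a sterol transporter with a wild-type H3K4me3 region in the gene, had 5500, 2467 and 2625 in DEN_KO livers, against 2987, 2105 and 2957 in DEN_WT livers, groups that overlapped (adjusted p = 0.39).

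**Figure D4:**
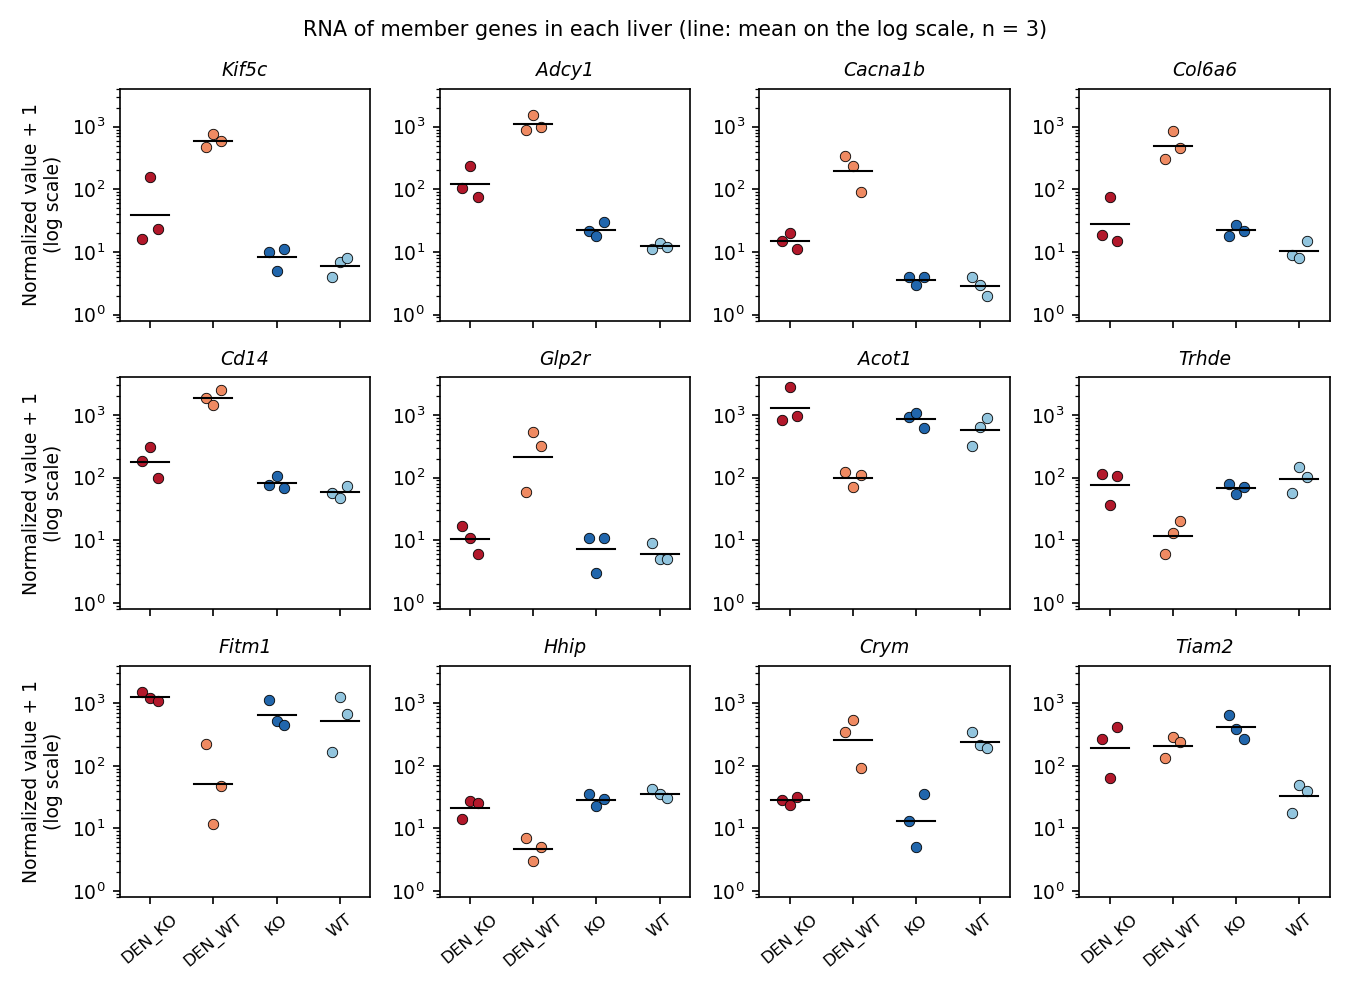
Normalized RNA values plus 1 (y axis, log scale) of 12 Smyd3-only start genes in each liver of the DEN_KO, DEN_WT, KO and WT groups, with the mean of the log values as a line (n = 3 each). Kif5c, Adcy1, Cacna1b, Col6a6, Cd14 and Glp2r have their highest group mean in DEN_WT and Acot1, Trhde, Fitm1 and Hhip their lowest, while Crym is low in DEN_KO and KO livers and Tiam2 is low in WT livers.

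Few of these genes passed the test between untreated Smyd3-deficient and wild-type livers. In KO against WT 10 of the 827 passed the test (1.21%, against 1.16% of all tested genes), 6 higher (0.726%, against 0.546%) and 4 lower (0.484%, against 0.613%). An unadjusted limma p below 0.05 was found in 132 of the 827 and in 2492 of all 16471 tested genes, a similar share. The count depended on single libraries: it was 3 without KO replicate 1, 4 without KO replicate 2, 28 without KO replicate 3 and 5 without WT replicate 2. Crym, a thyroid hormone binding protein (peak at mm9 chr7:127345265-127345726), had 12, 4 and 34 in KO livers, against 349, 212 and 193 in WT livers (log2 difference -4.21 ± 0.66 SE, adjusted p = 0.0080, limma). It was also low with DEN, with 28, 23 and 31 in DEN_KO livers, against 341, 538 and 91 in DEN_WT livers (-3.19 ± 0.66, adjusted p = 0.0028). Crym was thus low in both Smyd3-deficient groups and did not differ detectably between DEN_WT and WT (0.08 ± 0.66, adjusted p = 0.94).

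Eps8l1 had 6, 2 and 2 in KO livers, against 53, 91 and 153 in WT livers (-4.52 ± 0.75 SE, adjusted p = 0.011, limma), a call lost without KO replicate 2 (-4.32, adjusted p = 0.059). Gm16867, a noncoding RNA gene, had 30, 35 and 13 in KO livers, against 0, 1 and 0 in WT livers (4.31 ± 0.67, adjusted p = 0.0079). Tiam2, an activator of the GTPase Rac, had 659, 384 and 270, against 17, 48 and 39 (3.64 ± 0.60, adjusted p = 0.011), lost without KO replicate 1 (3.30, adjusted p = 0.057). Tiam2 was at 132, 287 and 242 in DEN_WT livers, above WT (2.68 ± 0.60, adjusted p = 0.0043). Rps2-ps13, a ribosomal protein pseudogene whose reads can come from other copies, had 952, 755 and 1375 in KO livers, against 7425, 5250 and 4675 in WT livers (-2.51 ± 0.31, adjusted p = 0.0018). The other named calls, higher for Sema3e and Rab6b and lower for Disp2, were each lost in at least 2 of the fits that left out 1 library, with adjusted p up to 0.14 for Sema3e, 0.088 for Rab6b and 0.22 for Disp2.

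The effect of DEN differed between genotypes in 110 of the 827 Smyd3-only start genes (13.3%, against 16.6% of all tested genes), 60 with a higher effect in Smyd3-deficient mice (7.26%, against 8.73%) and 50 with a lower one (6.05%, against 7.83%). With scaling to library totals the split was 39 and 60. The count was 63 without DEN_KO replicate 3, 69 without KO replicate 1 and 72 without WT replicate 2. Adcy1 was 2.43 higher with DEN on the log2 scale in Smyd3-deficient mice and 6.49 higher in wild-type mice, a difference of -4.06 ± 0.53 (SE, adjusted p = 0.00094, limma). Cd14 was 1.10 higher with DEN in Smyd3-deficient mice and 5.00 higher in wild-type mice (-3.89 ± 0.50, adjusted p = 0.00094). Acot1 was 0.61 higher with DEN in Smyd3-deficient mice and fell by 2.51 in wild-type mice (3.12 ± 0.63, adjusted p = 0.0070). Among Smyd3-only start genes the 109 tested pseudogenes gave 29 of the 60 higher calls and none of the 50 lower ones, and of all 1692 tested pseudogenes 335 were higher and 15 lower, so the direction was not particular to these genes.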

How the data were processed

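RNA was measured in 12 liver libraries, and peaks came from ChIP-seq with Smyd3 and H3K4me3 antibodies. The RNA values are scores: the authors deposited normalized read counts rounded to whole numbers, with GC content given as a fraction per gene in the same deposited table. Per the submitters' processing notes the tools were cutadapt, TopHat2 2.0.9, Cufflinks, Bowtie2 and DESeq, with build mm9. The role of each tool, the peak caller and the pooling of replicates are not stated in the sources used here. Peaks were joined to H3K4me3 regions by any shared base and to gene starts within 1000 bp. Values were fitted as log2(value + 1) with limma 3.58.1 in R 4.3.3 (all 12 libraries, 4 groups, trended prior), after a filter of at least 10 in at least 3 libraries, with Benjamini-Hochberg adjustment over 16471 genes at 0.05. No count test was run, because the values are not raw counts. The fit was run on simulated counts with a single spread for all genes, which checks the code and does not measure error rates in these data. Replicate numbers did not pair libraries, so no block was used.

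The Smyd3-only start peaks and the gene lists were chosen with earlier results of these data known, and the gene groups by symbol after the members' names were seen. Named genes were up to 8 with the largest changes each way in the comparisons with DEN and up to 4 each way in KO against WT and in the difference of DEN effects, all past the threshold with groups that did not overlap, the 8 highest in DEN_WT, up to 4 members of each list with the highest DEN_WT level, the 3 genes with most peaks, the 3 widest peaks, those at the distance limit and the 4 sharing most with the DEN_KO list. Other genes were named from the gene groups after their values were seen. Promoter windows and miRNA sequences are RefSeq's, in build GRCm38.p6, matched by symbol. Alternatives tried were other pseudocounts, filters, scalings and distance or overlap rules, a replicate block, only the groups compared, and leaving out each library.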

Additional observations from a re-analysis of the deposited data

Results flagged for a closer look

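For 26 of the Smyd3-only start genes named here, the effect of DEN differed between Smyd3-deficient and wild-type mice by the interaction term of limma, with an adjusted p of at most 0.05. Each value is the log2 effect of DEN in Smyd3-deficient mice minus that in wild-type mice. The 26 were named for their changes in the same libraries, so they do not stand for all 110 such genes.

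The difference was positive for 15 of them. It was 5.30 for Eps8l1, 4.31 for Fitm1, 3.62 for Hspa1a, 3.39 for Ttll8, 3.23 for Trhde, 3.23 for mmu-mir-2134-2, 3.12 for Acot1, 3.11 for Gulp1, 3.00 for Gm10059, 2.89 for Plin4 and 2.49 for Hhip. It was 1.77 for Slc22a7, 1.76 for Rps2-ps13, 1.29 for Gm10116 and 0.79 for Atp5d. Hspa1a, an inducible heat shock protein gene, had 374, 1735 and 3663 in DEN_KO livers, against 170, 430 and 223 in DEN_WT livers, and 267, 836 and 174 in KO livers, against 814, 1078 and 572 in WT livers. Its reads can be shared with a near-identical neighbour. Ttll8, a tubulin glycylase gene, had 39, 23 and 51 in DEN_KO livers, against 13, 2 and 1 in DEN_WT livers.

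The difference was negative for the others. It was -5.24 for Col6a6, -5.23 for 9030425E11Rik, -4.61 for Glp2r, -4.39 for Kif5c, -4.31 for Gm16867, -4.06 for Adcy1, -4.03 for Cacna1b, -3.89 for Cd14, -3.76 for Tiam2, -3.71 for Cldn4 and -3.30 for Bmp8b. Cldn4 had 5, 1 and 4 in DEN_KO livers, against 36, 11 and 37 in DEN_WT livers.

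The adjusted p exceeded 0.05 on leaving out single libraries for Fitm1 (up to 0.072), mmu-mir-2134-2 (0.068), Plin4 (0.079), Gm10059 (0.070), Bmp8b (0.10), Gulp1 (0.12), Hspa1a (0.062), Ttll8 (0.10), Atp5d (0.10) and Slc22a7 (0.080).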

How the results depend on the processing

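The number of Smyd3-only start peaks was 1926 with a 500 bp limit, 2691 with 2000 bp, 2009 by peak centre, 1944 outside both H3K4me3 lists, 2179 with no wild-type H3K4me3 within 1000 bp and 2478 when up to 50% of a peak could be covered. Over the fits that left out 1 library, called genes ranged from 166 to 255 in DEN_KO against DEN_WT, from 170 to 254 in DEN_WT against WT, from 3 to 28 in KO against WT and from 63 to 125 for the difference of DEN effects. KO against WT gave 5 calls among genes whose peak lay outside both H3K4me3 lists, with fewer genes tested. With the replicate number as a replicate block the 4 counts were 227, 216, 11 and 99. Deviations of same-numbered libraries correlated between -0.0996 and 0.12, so the numbers do not pair the libraries.

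Of 935 refits of 48 results on single genes 878 stayed past the threshold and 57 did not. None changed direction, but the named differences between groups were chosen with groups that did not overlap. Leaving out a library or changing the pseudocount or filter keeps the sign of such a difference, so direction is no check there. Of the 57, 48 left out 1 library. The others were Sema3e (adjusted p of 0.051 without a filter, 0.057 with quantile normalization), Rab6b (0.067 with only the groups compared), Ttll8 (0.074 without a filter) and Disp2, lost under 5 settings (0.051 to 0.085), 1 of them the replicate block. The causes were not tested. With 3 livers a group the precision of small RNA differences is limited, and with single peak lists the differences in peaks have no error estimate.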
